A study of Mus musculus with 2 samples.

Results

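Interferon-high Treg cells are the cells of each library that devote the largest share of their transcripts to 8 interferon-stimulated genes, namely Ifit1, Ifit3, Ifit3b, Isg15, Rsad2, Usp18, Cmpk2 and Mx1. In each library the top 5% of cells were taken by the sum of these genes' unique molecular identifiers (UMIs, 1 per captured transcript) over the cell's total UMIs. This gave 182 cells of the 3659 that passed the cell filters, 72 of 1457 in B16 tumour and 110 of 2202 in lymph node. They are compared with the other 1385 tumour cells and the other 2092 lymph node cells. Because the measured values of the 8 genes chose the cells, the levels of those genes describe the choice, and no test was made on any gene of the same cells.

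Both libraries came from sorted cells of Foxp3Cre-YFP mice of the C57BL/6 strain, aged 5 to 8 weeks, in which the Foxp3 gene drives Cre recombinase and a yellow fluorescent protein. The tumour library came from B16 tumour, a transplanted melanoma line of that strain, at day 14, and the lymph node library from unchallenged mice. Both groups carry the Foxp3Cre-YFP allele and no other allele is named. Neither the sort gate nor the number of mice is stated in the labels, there was 1 library per tissue, and tissue, mouse, sort and library cannot be told apart. Values are raw UMI counts from droplet sequencing at the 3' end of transcripts, summed over cells and scaled to 1000000 UMIs (CPM). Ratios carry a 95% interval for counting error only, which treats every UMI as independent and leaves out the spread between cells and mice.

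Type I interferons signal through the receptor chains encoded by Ifnar1 and Ifnar2 to the kinases JAK1 and TYK2. A complex that includes STAT2 and IRF9 then binds the interferon-stimulated response element in the promoters of antiviral genes. Interferon gamma acts through Ifngr1 and Ifngr2 and on promoters with the gamma-activated sequence, and many genes answer to both. Treg cells hold back other T cells, and interferon signals are known to change their survival and suppressive function. IFIT proteins bind viral RNA, viperin (Rsad2) makes an antiviral nucleotide and CMPK2 is a nucleotide kinase encoded beside it. ISG15 is a ubiquitin-like modifier, USP18 removes it from proteins and also damps signalling at the receptor, and MX1 is an antiviral dynamin-like GTPase.

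The promoters of 5 genes are shown because they hold the element's core and belong to score genes or, for Cxcl10, to a gene outside the score with one of the highest ratios in both tissues. Each window runs from 250 bases before to 50 bases after the start that RefSeq annotates on GRCm38.p6, on the gene's own strand, 5′ to 3′. Capitals mark every match to the core of the response element, GAAA followed by any 2 bases and a second GAAA, on either strand. The first 4 are score genes: Ifit1 (chr19:34640639-34640938, plus strand), Ifit3 (chr19:34583279-34583578, plus strand), Isg15 (chr4:156200769-156201068, minus strand) and Rsad2 (chr12:26456403-26456702, minus strand). Cxcl10 (chr5:92348840-92349139, minus strand) lies outside the score.
Ifit1: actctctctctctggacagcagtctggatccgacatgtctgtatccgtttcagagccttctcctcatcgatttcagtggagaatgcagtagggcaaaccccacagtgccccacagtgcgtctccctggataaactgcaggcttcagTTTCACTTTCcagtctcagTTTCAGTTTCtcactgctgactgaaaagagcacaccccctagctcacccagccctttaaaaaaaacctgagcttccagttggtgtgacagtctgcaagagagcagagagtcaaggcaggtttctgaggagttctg
Ifit3: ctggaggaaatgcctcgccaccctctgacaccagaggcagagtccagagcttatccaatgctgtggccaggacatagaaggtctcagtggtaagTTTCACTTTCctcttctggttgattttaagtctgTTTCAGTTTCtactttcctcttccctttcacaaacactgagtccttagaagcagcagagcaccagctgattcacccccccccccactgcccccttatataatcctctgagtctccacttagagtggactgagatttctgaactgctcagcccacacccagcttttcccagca
Isg15: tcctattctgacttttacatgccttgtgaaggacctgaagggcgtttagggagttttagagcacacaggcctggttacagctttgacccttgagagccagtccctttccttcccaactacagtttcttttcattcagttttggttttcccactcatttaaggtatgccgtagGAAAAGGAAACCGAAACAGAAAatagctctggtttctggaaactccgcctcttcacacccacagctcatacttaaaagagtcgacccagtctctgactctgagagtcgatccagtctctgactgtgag
Rsad2: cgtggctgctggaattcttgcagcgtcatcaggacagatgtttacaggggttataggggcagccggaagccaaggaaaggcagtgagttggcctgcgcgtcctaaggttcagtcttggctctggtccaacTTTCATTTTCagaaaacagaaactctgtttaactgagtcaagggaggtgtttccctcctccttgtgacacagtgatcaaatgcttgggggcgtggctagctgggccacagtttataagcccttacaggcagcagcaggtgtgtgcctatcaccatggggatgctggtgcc
Cxcl10: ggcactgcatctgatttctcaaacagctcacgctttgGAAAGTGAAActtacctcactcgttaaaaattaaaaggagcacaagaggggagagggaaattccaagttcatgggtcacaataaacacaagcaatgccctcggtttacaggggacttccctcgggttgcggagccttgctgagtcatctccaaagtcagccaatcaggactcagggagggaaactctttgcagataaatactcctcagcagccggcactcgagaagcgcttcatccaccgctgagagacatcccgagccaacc
The matches began 104 and 85 bases before the start in Ifit1, 156 and 122 in Ifit3, 78, 72 and 66 in Isg15 (3 that overlap), 120 in Rsad2 and 213 in Cxcl10. None of the 5 windows held TTCNNNGAA, the core of the gamma-activated sequence. A match is a description and does not show that a factor binds.

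Interferon-high cells were shallower than the rest in tumour and close to it in lymph node. Their median was 7292 UMIs and 2213 genes in tumour, against 8936 UMIs and 2459 genes in the other tumour cells, and 3901 UMIs and 1294 genes in lymph node, against 4118 UMIs and 1337 genes in the other lymph node cells. The other cells also held the deepest ones, up to 53840 UMIs in tumour and 53058 in lymph node, where no interferon-high cell passed 24755 and 8757. Median mitochondrial shares were 1.26% against 1.40% in tumour and 2.67% in both groups of lymph node. The 2 libraries shared 1 cell barcode, and none among the interferon-high cells. Near-identical family members can split reads between them, so single values of Ifit3 and Ifit3b, Ifit1 and Ifit1bl1, the Phf11 genes, Ms4a4c, Tgtp1, Gbp6 and the Ifi200 genes are uncertain.

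In tumour the score was 44.4, 62.0 and 343 score UMIs per 10,000 UMIs in the lowest, median and highest interferon-high cell, against 0, 4.64 and 43.2 in the other cells. The lymph node scores were 11.6, 18.7 and 149 in interferon-high cells, against 0, 0 and 11.6 in the other cells. The threshold cut through a continuous range: the last 3 cells inside had 44.8, 44.6 and 44.4 in tumour and 11.8, 11.8 and 11.6 in lymph node, and the first 3 outside had 43.2, 42.9 and 42.4 in tumour and 11.6, 11.5 and 11.3 in lymph node. Interferon-high cells held 31.5% of all score UMIs of tumour cells and 51.0% of those of lymph node cells. Every tumour interferon-high cell had a UMI of at least 3 of the 8 genes, as did 45.3% of the other tumour cells. In lymph node 77.3% of interferon-high cells had 3 or more, against 2.06% of the other cells, and the fewest score UMIs in an interferon-high cell there was 3.

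**Figure D1:**
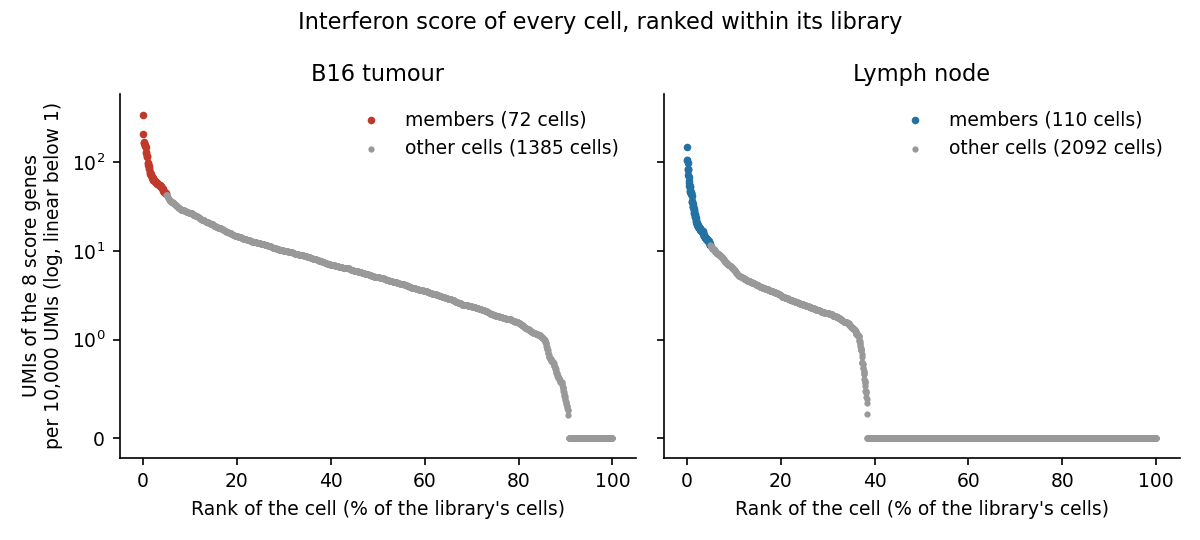
Score of every cell (y axis, UMIs of the 8 score genes per 10,000 UMIs of the cell, log scale that is linear below 1) against its rank as a percentage of the library's cells (x axis), tumour left and lymph node right, with interferon-high cells in colour and other cells in grey. No gap separates the coloured cells from the grey ones, and 9.89% of the other tumour cells and 64.9% of the other lymph node cells sit at 0.

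The same relative cut therefore marks different absolute levels in the 2 tissues. At the lymph node cut of 11.6, 384 of 1457 tumour cells (26.4%, 24.1 to 28.7) would be counted, and at the tumour cut of 44.4, 21 of 2202 lymph node cells (0.954%, 0.591 to 1.45). With every cell thinned to 1811 UMIs, at least 3 score UMIs were found in 23.1% of tumour cells (21.0 to 25.4) and 4.18% of lymph node cells (3.38 to 5.10), and at least 10 in 3.77% and 0.772%. The choice itself was repeated after each cell's UMIs were divided at random into 2 equal parts. Of the cells chosen on the first part, 59 of 72 in tumour (81.9%, 71.1 to 90.0) and 70 of 110 in lymph node (63.6%, 53.9 to 72.6) were also in the top 5% by the other. In the part not used for choosing, the summed score genes were 11.5-fold higher in tumour (11 to 12.1) and 19.9-fold higher in lymph node (17.8 to 22.2), against 12-fold and 23.9-fold with all UMIs.

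Each of the 8 score genes was higher in the cells it helped to choose, by 8.58-fold (Isg15) to 20.4-fold (Ifit3) in tumour and by 12.4-fold (Usp18) to 57.5-fold (Rsad2) in lymph node. Ifit1 (mm10 chromosome 19, 34640871 to 34650009, plus strand) had 0, 10 and 123 UMIs in the lowest, median and highest interferon-high tumour cell, against 0, 0 and 23 in the other tumour cells. The lymph node values of Ifit1 were 0, 2 and 19 UMIs in interferon-high cells, against 0, 0 and 4 in the other cells. The ranges overlap in both tissues, and 1 tumour and 21 lymph node interferon-high cells lacked an Ifit1 UMI. Isg15 (chromosome 4, 156199424 to 156200818, minus strand) was found in all 72 interferon-high tumour cells, at 6, 24 and 67 UMIs, against 0, 2 and 47 in the other tumour cells, of which 78.3% held it. In lymph node Isg15 had 0, 3 and 18 UMIs in interferon-high cells, against 0, 0 and 6 in the other cells. Rsad2 and Mx1 were sparse in lymph node, with a UMI in 26.4% and 11.8% of interferon-high cells, against 1.0% and 0.430% of the other cells.

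Free RNA in the droplets carried the same transcripts. Barcodes under 100 UMIs held the 8 genes at 931 CPM in tumour, against 7780 CPM in interferon-high cells and 651 CPM in the other cells, and at 220 CPM in lymph node, against 2869 and 120 CPM. Averaged over all other cells the level lay below that of near-empty droplets, while the other cells ranked next by score, the second of 20 bins, were above it at 3245 CPM in tumour and 853 CPM in lymph node. The part of free RNA in the ratios was not tested.

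T cell and Treg transcripts were present in interferon-high cells at about the level of the other cells, though the small Treg difference in tumour changed direction between comparisons. The data bear out the T cell part of the name, while Foxp3 itself was sparse. After thinning, all 72 tumour and all 110 lymph node interferon-high cells held a UMI of Cd3d, Cd3e or Cd3g, the CD3 chains of the T cell receptor, against 98.8% and 98.2% of the other cells. The gene of the transcription factor Helios, Ikzf2, was found in 86.1% against 81.7% in tumour and in 64.5% against 55.3% in lymph node. Foxp3 had 12 UMIs in interferon-high tumour cells, against 274 in the other tumour cells, a ratio of 1.14 (0.581 to 2.02), and 12 against 222 UMIs in lymph node, a ratio of 1.24 (0.632 to 2.21). The 14 Treg identity genes had a median log2 ratio of 0.01 in tumour and 0.00 in lymph node, where all genes had -0.13 and -0.07, and none of them was 2-fold apart in tumour, while 1 was higher in lymph node. That was Entpd1, named after its values were seen (2.30, 0.959 to 4.75, on 8 against 80 UMIs). Summed over the 14 genes, the tumour ratio was 1.06 (1.02 to 1.09) with all other cells and 1.11 with the top 2%. It was 0.883 (0.853 to 0.914) against other cells matched on depth, a comparison chosen after the data were seen. Leaving out dividing cells, those with at least 3 UMIs of mitosis genes, gave 0.940 (0.901 to 0.981). In lymph node the ratios were 1.03, 1.14, 1.05 and 1.02 in the same order. Il2ra (the IL-2 receptor alpha chain) was at 143 against 150 CPM in tumour and 146 against 157 CPM in lymph node, and Ctla4, an inhibitory receptor, at 695 against 672 CPM and 74.1 against 106 CPM.

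Several marker lists of other cell types had no UMI in interferon-high cells. Others were present at about the level of the other cells or above it, except that CD8 T cell markers were lower in lymph node. All 7 markers of NK and innate lymphoid cells, all 7 of neutrophils and mast cells and all 7 of erythroid cells and platelets had 0 UMIs in both tissues. Cd8a also had none, which by a floor of 3 counts allows a share of cells with a UMI of up to 4.17% in tumour and 2.73% in lymph node (exact upper bounds 4.99% and 3.30%). The list of 7 CD8 T cell markers that Cd8a belongs to summed to 3235 against 2740 CPM in tumour, found in 87.5% against 94.3% of cells and made up chiefly of Ccl5 and Nkg7, and to 96.5 against 172 CPM in lymph node. Dendritic cell markers summed to 350 against 340 CPM in tumour and 115 against 132 CPM in lymph node, mostly Cd74, with Flt3, Clec9a, Xcr1 and Itgax at 0 in interferon-high cells. The plasmacytoid dendritic cell markers Siglech and Cox6a2 were at 0, while that list's sum was 1209 against 668 CPM in tumour and 613 against 157 CPM in lymph node, carried by Bst2 and Irf8, which interferon also induces. The 10 macrophage and monocyte markers summed to 755 CPM in interferon-high tumour cells (0 to 46 UMIs per cell), against 385 CPM in the other tumour cells (0 to 78), with C1qa, C1qc, Adgre1 and Csf1r at 0. Together 2 of them made up most of this, Ly6c2 at 321 against 117 CPM and the chemokine receptor gene Ccr2 at 421 against 256 CPM. B16 melanoma markers summed to 34.0 against 34.1 CPM in tumour cells. The cell rule had removed barcodes with many melanoma, macrophage or B cell UMIs, which limits C1qa, C1qb, Lyz2, Pmel, Dct, Mlana, Cd79a and Ms4a1 in all cells. The markers' part in the results was not tested.

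Outside the score, the genes highest in interferon-high cells were again interferon-stimulated genes. Of 57 measured antiviral effector genes, 51 were at least 2-fold higher and none lower in tumour (median log2 ratio 1.72), and 45 of 54 were higher and none lower in lymph node (1.97). Over all genes with at least 100 UMIs outside the score, 277 of 7901 (3.51%) had a ratio of 2 or more in tumour and 799 (10.1%) a ratio of 0.5 or less. In lymph node 158 of 6750 (2.34%) were higher and 483 (7.16%) lower. The interferon lists, here with MHC class I presentation among them, hold 139 genes. They made up 83 of the 277 higher genes in tumour (30.0%) and 67 of the 158 in lymph node (42.4%), and 0 of the 799 and 1 of the 483 lower genes. Among genes that reached 100 UMIs in each library, 98 were at least 2-fold higher in both, which is 48.5% of the 202 called in tumour and 64.1% of the 153 called in lymph node. For lower genes the 97 shared were 20.2% of 481 and 21.4% of 453. Interferon-high cells were chosen on co-expressed genes of the same cells, so these counts describe what goes with the score and what counting error adds. Interferon-high cells hold 3.70% of the cell UMIs in tumour and 4.17% in lymph node. A gene near 100 UMIs therefore has few UMIs in them and can pass 2-fold by counting error, most easily among the lower genes. How many called or shared genes this accounts for was not tested. The counts moved with the count filter and with depth: without a filter 1120 genes were higher in tumour and 1040 in lymph node, and with cells thinned to equal depth 625 and 332.

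**Figure D2:**
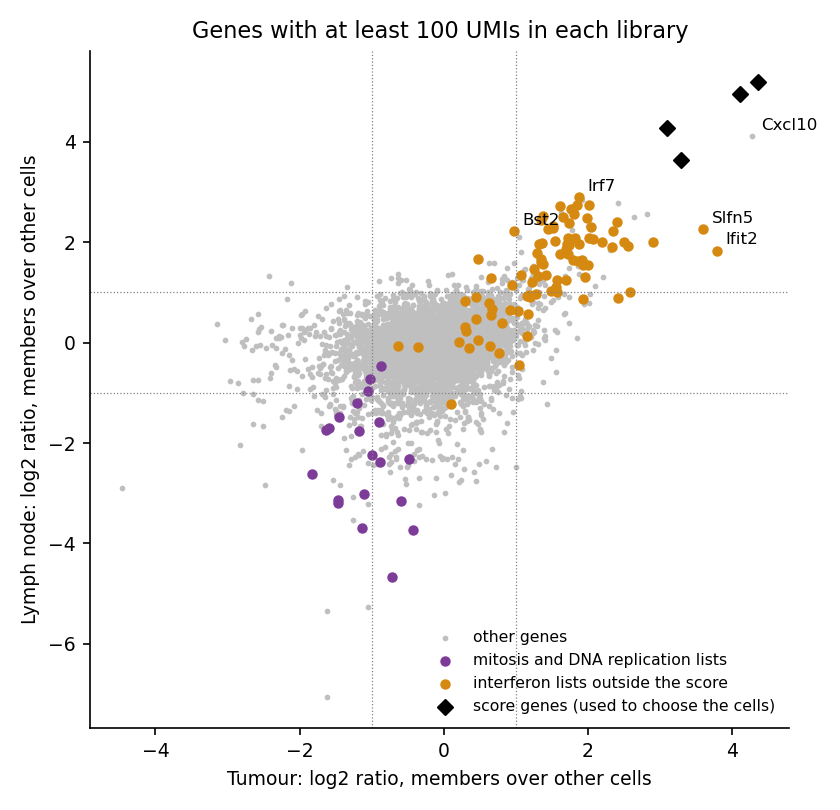
Log2 ratio of interferon-high over other cells in tumour (x axis) and lymph node (y axis) for 6519 genes with at least 100 UMIs in each library and a UMI in every group, with 4 score genes as black diamonds, 90 genes of the interferon lists in orange and 20 of the mitosis and DNA replication lists in purple. Dotted lines mark 2-fold. The interferon lists of this figure leave out MHC class I presentation. Counting any score genes in those lists, 60 genes of the interferon lists are at least 2-fold higher in both tissues, and the purple points lie below 0 in both.

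Among the effectors, several had larger ratios in one tissue. Ifit2 (chromosome 19, 34550694 to 34576419, plus strand), another IFIT protein gene, had 0, 0 and 12 UMIs in the lowest, median and highest interferon-high tumour cell, against 0, 0 and 3 in the other tumour cells, and was 13.9-fold higher (10.8 to 17.6). Ifit2 in lymph node had 15 UMIs in 9 interferon-high cells, against 97 UMIs in the other cells, a ratio of 3.55 (1.92 to 6.16) that turned to a log2 ratio of -0.24 when cells were thinned to equal depth. Slfn5, of the Schlafen family, was 12.1-fold higher in tumour (8.85 to 16.5) and 4.79-fold in lymph node (3.30 to 6.80). Ms4a4c, a membrane protein gene, was 5.97-fold and 2.02-fold higher. In the other direction stood Oas3, an oligoadenylate synthetase that activates RNase L, 3.14-fold higher in tumour (2.43 to 4.02) and 11.9-fold in lymph node (7.27 to 19.1). Bst2, which encodes tetherin, had 0, 8 and 25 UMIs in interferon-high tumour cells, against 0, 5 and 53 in the other tumour cells, and was 1.96-fold higher (1.81 to 2.13). In lymph node Bst2 had 0, 1 and 9 UMIs in interferon-high cells, against 0, 0 and 16 in the other cells, and was 4.65-fold higher (4.04 to 5.34). The ranges of Ifit2 and Bst2 overlap between the groups in both tissues.

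A further set was higher in both tissues. Isg20, an exonuclease gene, was 3.41-fold higher in tumour (3.10 to 3.74) and 6.36-fold in lymph node (5.11 to 7.85). Rtp4, which encodes a chaperone of membrane receptors, was 3.06-fold and 6.61-fold higher, and the OAS-like genes Oasl1 and Oasl2 were 10.7-fold and 7.42-fold higher in tumour and 13.4-fold and 10.9-fold in lymph node. Ifitm3, whose product blocks virus entry, was 3.95-fold and 8.87-fold higher, on 331 and 22 UMIs in interferon-high cells. Ifi27l2a, an abundant interferon-induced transcript, was found in all tumour cells of both groups, at a median of 83.5 UMIs against 75, and was 1.57-fold higher (1.53 to 1.61). In lymph node its median was 13 UMIs against 5, a 2.45-fold difference (2.34 to 2.57). Phf11c, Phf11d, Gm4951 and BC094916 were 3.80-fold, 4.06-fold, 10.3-fold and 5.31-fold higher in tumour and 7.15-fold, 6.72-fold, 4.84-fold and 6.88-fold in lymph node.

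Nucleic acid sensors and the enzymes of ISG15 conjugation went with the effectors. Ddx58 and Ifih1, which encode the RNA sensors RIG-I and MDA5, were 4.03-fold (3.17 to 5.07) and 5.06-fold (3.88 to 6.52) higher in tumour and 4.12-fold (2.90 to 5.72) and 4.70-fold (2.71 to 7.75) in lymph node. Dhx58 (LGP2) was 3.57-fold and 6.68-fold higher, and Zbp1, a sensor of Z-form nucleic acid, 2.71-fold and 4.82-fold. Over the list, 6 of 10 measured sensors passed 2-fold in tumour and 5 of 10 in lymph node, with none lower and a median log2 ratio of 1.35 in both. The ISG15-activating enzyme gene Uba7 was 2.27-fold and 1.93-fold higher, the conjugating enzyme gene Ube2l6 2.91-fold and 4.08-fold, and the ligase gene Herc6 3.47-fold and 5.95-fold. These 3 genes for attaching the modifier had ratios above 1 in both tissues. Isg15 itself and Usp18, which removes it, are score genes, so their ratios describe the choice of cells.

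GTPases that interferon induces, chiefly interferon gamma, were also higher. All 17 measured guanylate-binding and immunity-related GTPase genes passed 2-fold in tumour (median log2 ratio 1.79) and 15 of 16 in lymph node (1.65), where Gvin1 had 0 against 25 UMIs. Iigp1 was 5.27-fold (4.69 to 5.92) and 5.28-fold (4.17 to 6.63) higher, Irgm1 4.06-fold and 4.23-fold, and Tgtp1 6.15-fold and 2.59-fold. The Ifi200 family of DNA-binding proteins had 6 of 7 genes at least 2-fold higher in tumour and 3 of 4 in lymph node. Ifi204 had 63 UMIs in 24 of 72 interferon-high tumour cells, against 51 UMIs in 32 of 1385 other tumour cells, a 32.1-fold difference (21.9 to 47.4). Ifi204 in lymph node had 2 UMIs against 1 and gives no comparison. Mnda was 7.43-fold higher in tumour (5.78 to 9.47), on 86 against 301 UMIs, and had 2 against 12 UMIs in lymph node. Pyhin1 was 4.20-fold and 4.16-fold higher and Ifi203 2.55-fold and 3.05-fold.

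Genes of the signalling chain had ratios that varied from gene to gene. Ifnar1 was at 84.2 against 66.3 CPM in tumour (ratio 1.27, 0.943 to 1.68) and at 60.6 against 65.0 CPM in lymph node (0.933, 0.610 to 1.37). Ifnar2 was at 82.6 against 53.1 CPM in tumour (1.55, 1.15 to 2.06) and at 51.6 against 54.0 CPM in lymph node (0.956, 0.601 to 1.45), and Ifngr1 had ratios of 1.24 and 1.18. Ifngr2 had 0 against 53 UMIs in tumour, where interferon-high cells hold 3.70% of the cell UMIs, too few to show a difference. In lymph node it was at 38.2 against 28.8 CPM (1.32, 0.761 to 2.16). Stat2 was 3.30-fold and 3.38-fold higher and Irf9 1.92-fold and 2.20-fold. Irf7, the factor that amplifies type I interferon responses, was 3.68-fold higher in tumour (3.30 to 4.10) and 7.47-fold in lymph node (6.10 to 9.11). Irf1, which mediates interferon gamma responses, was 1.55-fold and 1.73-fold higher, and Socs1, a feedback inhibitor of JAK kinases, 2.96-fold and 2.14-fold. Over the 22 genes of the signalling list, 7 were at least 2-fold higher and 1 lower in tumour (median log2 ratio 0.65), and 5 were higher and 1 lower in lymph node (0.40). Of all genes with at least 100 UMIs outside the score, 3.51% were higher and 10.1% lower in tumour, and 2.34% and 7.16% in lymph node.

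Type I and type III interferon ligands were not detectable at this depth. None of their 18 genes had a UMI in any barcode of either library. Ifng had 18 UMIs in interferon-high tumour cells, against 416 in the other tumour cells, a ratio of 1.13 (0.660 to 1.80), and 1 UMI against 50 in lymph node.

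Cxcl10, a chemokine that draws in T cells carrying the receptor CXCR3, had the second highest ratio outside the score in tumour and the highest in lymph node, ranked by the interval's lower bound over genes with at least 100 UMIs, but many interferon-high cells lacked it. It lies on chromosome 5, 92346638 to 92348889, minus strand. In tumour it had 346 UMIs in interferon-high cells, against 464 in the other tumour cells, a 19.4-fold difference (16.8 to 22.3), with 0, 0 and 46 UMIs in the lowest, median and highest interferon-high cell, against 0, 0 and 23 in the other cells. A UMI was found in 34 of 72 interferon-high tumour cells, and the 3 with most held 36.7% of the UMIs. Lymph node interferon-high cells had 75 Cxcl10 UMIs, against 100 in the other cells, a 17.2-fold difference (12.6 to 23.5), and 13 of 110 interferon-high cells held it, 3 of which had 50.7% of the UMIs. The log2 ratio of Cxcl10, 4.28 in tumour and 4.11 in lymph node, was 5.31 and 4.87 with the top 2% of cells, 3.77 and 3.11 with the top 10%, and 3.91 and 7.81 against other cells of matched depth. The 7.81 rests on very few UMIs in the comparison group: only 39 of 2092 other lymph node cells held Cxcl10, and 330 were matched. After thinning, 26.4% of interferon-high tumour cells had a Cxcl10 UMI (16.7 to 38.1), against 3.83% of the other tumour cells (2.88 to 4.98). In lymph node it was 10.9% (5.77 to 18.3) against 0.956% (0.585 to 1.47). Near-empty droplets held Cxcl10 at 160 CPM in tumour and 18.5 CPM in lymph node, against 561 and 168 CPM in interferon-high cells. Cxcr3 was at 348 against 238 CPM in tumour and 78.6 against 38.9 CPM in lymph node.

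**Figure D3:**
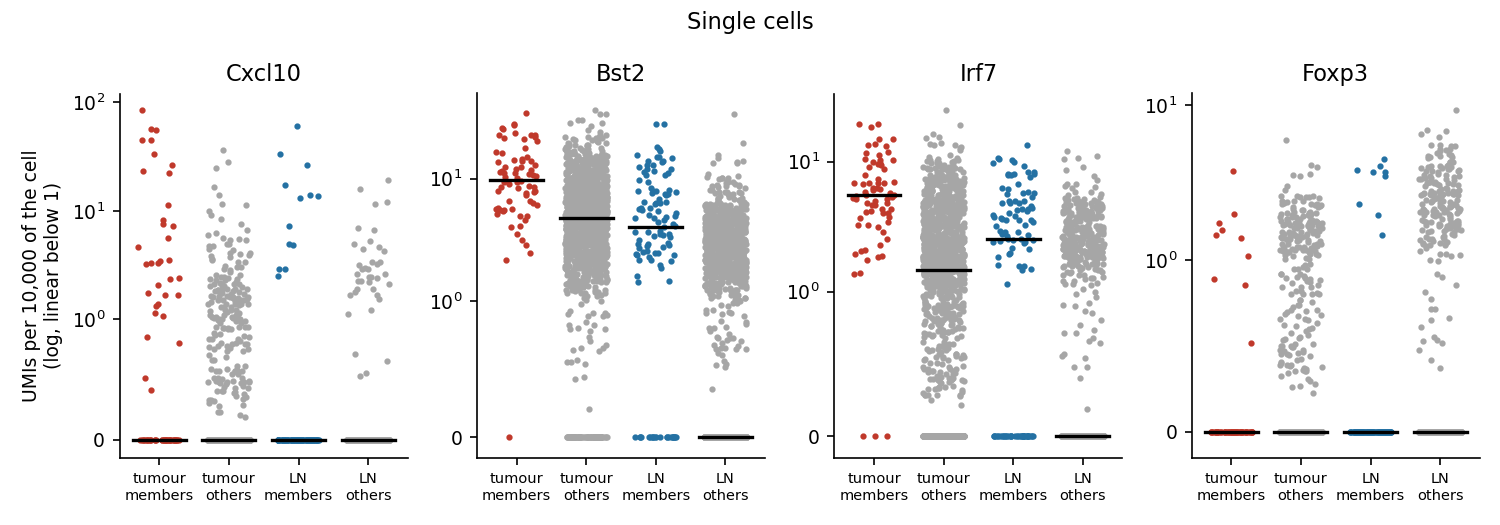
UMIs per 10,000 UMIs of the cell (y axis, log scale that is linear below 1) of Cxcl10, Bst2, Irf7 and Foxp3 in single cells, from left to right tumour interferon-high, other tumour, lymph node (LN) interferon-high and other lymph node cells, with black bars at the medians. Bst2 and Irf7 medians are higher in interferon-high cells, while the medians of Cxcl10 and Foxp3 are 0 in all 4 groups.

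Genes of antigen presentation by MHC class I, which interferons raise in most cells, were higher by smaller ratios. None of the 19 genes was 2-fold higher in tumour and 3 were in lymph node, with none lower in either, and the median log2 ratio was 0.53 and 0.56. In tumour 19 of the 19 had a ratio above 1, and in lymph node 18. B2m, the light chain of class I molecules, was at 9774 against 7432 CPM in tumour (ratio 1.32, 1.28 to 1.35) and at 5687 against 4149 CPM in lymph node (1.37, 1.32 to 1.43). H2-T22 was 1.99-fold (1.84 to 2.16) and 2.06-fold (1.80 to 2.36) higher, the peptide transporter gene Tap1 1.43-fold and 2.04-fold, and the loading factor gene Tapbp 1.88-fold and 1.81-fold. Summed over the list the ratio was 1.40 (1.38 to 1.42) in tumour and 1.38 in lymph node. Against other cells of matched depth, an alternative chosen after the data were seen, it was 1.20 (1.18 to 1.22) and 1.31 (1.28 to 1.35), and the antiviral effectors' summed ratio was 1.76 against 2.04 with all other cells in tumour and 2.22 against 2.39 in lymph node.

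Ligands and receptors of T cell regulation showed no common direction, with a few exceptions. Cd274, which encodes the checkpoint ligand PD-L1, was 2.05-fold higher in tumour (1.30 to 3.11) on 24 against 304 UMIs and 4.30-fold in lymph node (2.52 to 6.97) on 20 against 107 UMIs. Pdcd1, the gene of its receptor PD-1, was at 204 against 189 CPM in tumour and 29.2 against 42.9 CPM in lymph node. Cd69, an activation marker that holds T cells in tissue, was 2.82-fold higher in tumour (2.39 to 3.30) and 1.74-fold in lymph node (1.27 to 2.35). The surface antigen gene Ly6a was 1.39-fold higher in tumour (1.34 to 1.45) and 3.16-fold in lymph node (2.79 to 3.55). Among effector Treg genes none of 16 was 2-fold higher in tumour and 1 was lower, Ccr8 (0.302, 0.0817 to 0.779, on 4 UMIs). In lymph node 4 were higher and 1 lower. Over all genes with at least 100 UMIs outside the score, 3.51% were higher and 10.1% lower in tumour, and 2.34% and 7.16% in lymph node. List counts take genes from 20 UMIs, and the 16 had 375 UMIs together in interferon-high lymph node cells, so counting error weighs more there. The median log2 ratios of inhibitory receptors were 0.11 and -0.31 (-0.20 in lymph node with genes at 0 UMIs set to a floor of 3). Those of effector Treg genes were 0.25 and 0.35, and those of genes of resting recirculating T cells 0.36 and -0.00.

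Suppressive mediators were likewise mixed. In tumour Gzmb, the granzyme B gene, had 0, 3 and 121 UMIs in interferon-high cells, against 0, 2 and 161 in the other cells, and was 1.95-fold higher (1.82 to 2.07) with overlapping ranges. After thinning a Gzmb UMI was found in 51.4% of interferon-high tumour cells (39.3 to 63.3), against 41.5% of the others (38.9 to 44.2). In lymph node it had 0 UMIs in interferon-high cells, against 125 in 29 other cells. Il10 had 58 UMIs in 8 interferon-high tumour cells, against 907 UMIs in the other tumour cells, a ratio of 1.66 (1.25 to 2.17), but 3 cells held 91.4% of the 58. Without the 3 interferon-high cells with most score UMIs its log2 ratio was -1.23, so that this value rests on a few cells. Ebi3, a subunit of IL-35 and IL-27, was at 84.2 against 79.1 CPM in tumour and 13.5 against 19.9 CPM in lymph node. The chemokine genes Ccl3 or Ccl4 were found in 13.9% of interferon-high and 14.7% of other tumour cells after thinning. Ccl1 was found in none of 72 interferon-high tumour cells, against 572 UMIs in 4.26% of the other tumour cells. By summed UMIs that is at least 7.33-fold lower against a floor of 3 UMIs over the group, which treats UMIs as independent. By cells, 0 of 72 allows a share of up to 4.99% (exact upper bound), above 4.26%, so no difference in the share of cells was shown.

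**Figure D4:**
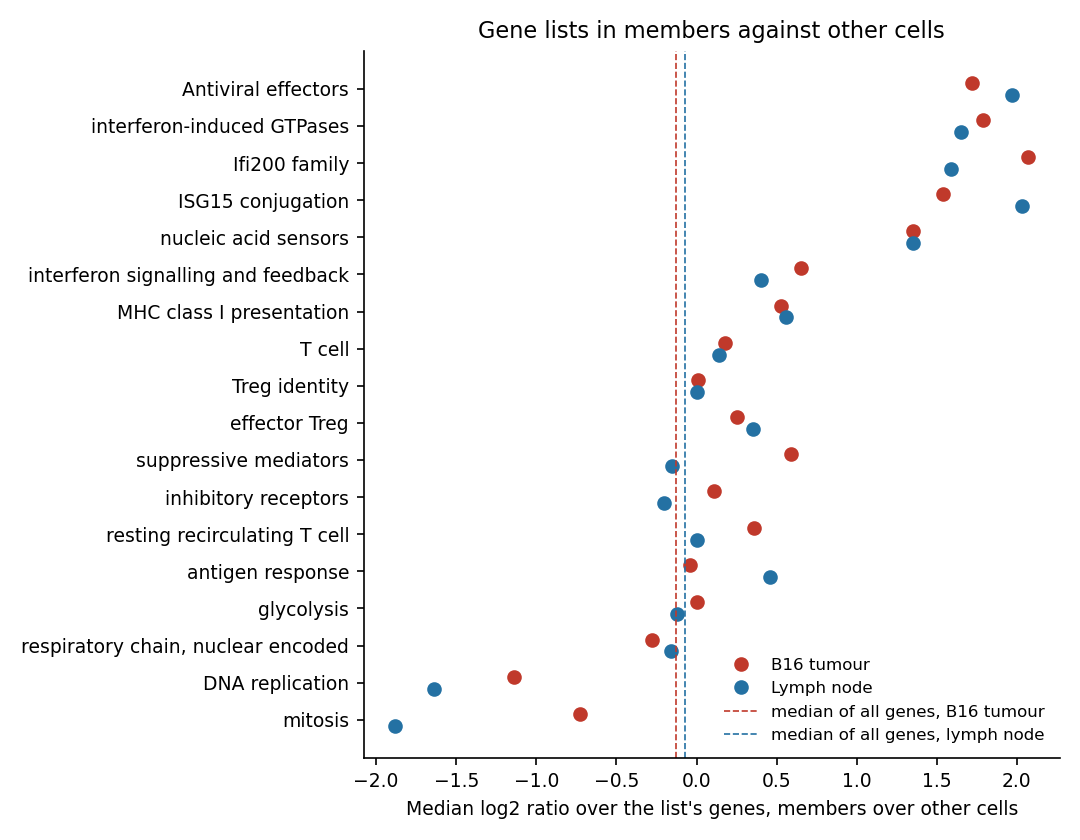
Median log2 ratio of interferon-high over other cells (x axis) for several gene lists (rows), tumour in red above lymph node in blue, with genes at 0 UMIs in interferon-high cells set to a floor of 3 UMIs and dashed lines at the median of all genes (-0.13 in tumour, -0.07 in lymph node). Interferon lists lie to the right, Treg and T cell lists near 0, and DNA replication and mitosis to the left.

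Transcripts of dividing cells were lower in interferon-high cells, a difference that moved with depth. Of 16 mitosis genes, 4 were at least 2-fold lower in tumour and 16 in lymph node, where 9 had no UMI in interferon-high cells. Their sum was 917 against 1708 CPM in tumour, a ratio of 0.537 (0.493 to 0.584), and 26.9 against 388 CPM in lymph node, a ratio of 0.0695 (0.0359 to 0.122) on 12 UMIs. Of 14 DNA replication genes 11 were at least 2-fold lower in each tissue, and their sum had ratios of 0.440 (0.397 to 0.487) and 0.365 (0.293 to 0.450). Against other cells of matched depth (216 in tumour and 330 in lymph node, medians 7288 and 3900 UMIs) the mitosis ratio was 0.973 (0.884 to 1.07) in tumour and 0.735 (0.356 to 1.40) in lymph node. The replication ratio was then 0.613 (0.547 to 0.685) in tumour and 0.864 (0.675 to 1.10) in lymph node. Thinned to equal depth, 3 or more mitotic UMIs were found in 9.72% of interferon-high tumour cells (4.0 to 19), against 21.8% of the others (19.7 to 24.1), and in 0 of 110 in lymph node, which by the floor of 3 counts allows a share of up to 2.73% (exact upper bound 3.30%), against 2.25%. Mki67, a proliferation marker gene, was at 72.9 against 119 CPM in tumour, and the thymidylate synthase gene Tyms at 55.1 against 119 CPM. Tyms turned to a log2 ratio of 0.12 when cells with 3 or more mitotic UMIs were left out. Among the lowest ratios in tumour was that of Tcf19, a cell cycle gene, with 1 UMI in interferon-high cells, against 572 in the others (ratio 0.0455, 0.00115 to 0.254).

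Across all cells ranked by the score and cut into 20 bins, the antiviral effectors outside the score followed it down. In tumour they summed to 36518 CPM in interferon-high cells, 30029 CPM in the next 73 cells and 27589 CPM in the 73 after that, and 10180 CPM in the bin before the last. The last tumour bin held 72 cells without a score UMI, at a median of 4920 UMIs, and had 19346 CPM. In lymph node they summed to 18620 CPM in interferon-high cells, 11762 CPM in the next bin and 10468 CPM in the one after, and then stayed between 5460 and 9662 CPM. Cells of equal score, those without a score UMI among them, were ordered by total UMIs, so bins within the 137 such tumour cells and 1357 such lymph node cells differ in depth and not in score. The step down to the next bin was 1.22-fold in tumour and 1.58-fold in lymph node. Within interferon-high cells, the 24 tumour cells with the highest scores had 45094 CPM, the next 24 had 33192 and the last 24 had 32397. The 37 lymph node cells with the highest scores had 22960 CPM, the next 37 had 18384 and the last 36 had 14099. Per cell, the effectors' level went with the score at Pearson r = 0.69 and Spearman rho = 0.47 over 72 interferon-high tumour cells and 0.59 and 0.57 over 110 in lymph node, where score and effectors share each cell's depth. For Treg identity genes r was -0.03 and 0.07.

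**Figure D5:**
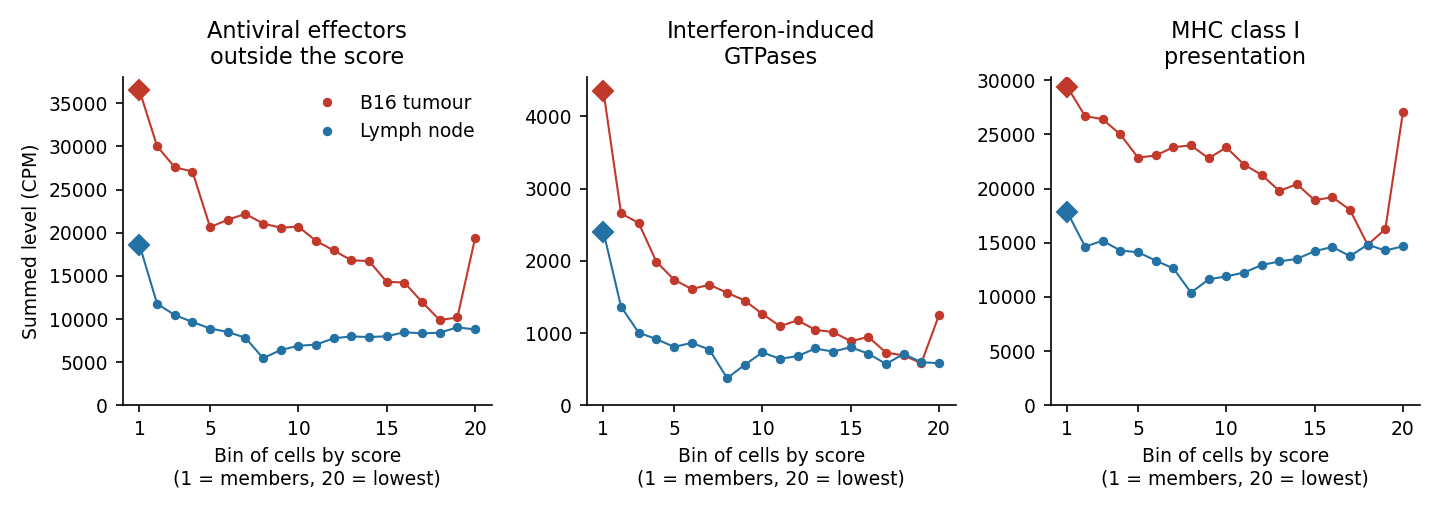
Summed level (y axis, CPM, from 0) of antiviral effectors outside the score, interferon-induced GTPases and MHC class I genes over 20 bins of cells ranked by score (x axis), tumour in red and lymph node in blue, with interferon-high cells as diamonds in bin 1. The effectors are at 36518 CPM in the first tumour bin and 9884 CPM in bin 18, and in lymph node the largest step is the first, 18620 CPM against 11762 CPM.

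Tumour interferon-high cells held more of these transcripts than lymph node interferon-high cells, and the same held for the other cells of the 2 tissues. The median log2 ratio of tumour over lymph node for antiviral effectors was 0.91 among interferon-high cells and 1.06 among the other cells, where all genes had 0.11 and 0.12. Among interferon-high cells the tumour level was 2-fold or more above that of lymph node for 1832 of 8956 genes (20.5%) and as far below it for 1330 (14.9%), against 12.5% and 6.32% among the other cells. Interferon-high cells held 617228 UMIs in tumour and 445384 in lymph node, against 16052035 and 10235717 in the other cells. More genes pass 2-fold by counting error in the smaller sums, so these shares do not show a larger tissue difference among interferon-high cells. Of 57 effectors 27 were at least 2-fold higher and 1 lower among interferon-high cells, and 30 and 1 among the other cells. The 8 score genes had a median log2 ratio of 1.48 among interferon-high cells and 2.61 among the others. For Isg15 this was 3059 CPM in tumour against 934 CPM in lymph node interferon-high cells, a ratio of 3.27 (2.94 to 3.65), and 7.40 (6.75 to 8.13) between the other cells. Slfn5 was at 102 against 87.6 CPM between interferon-high cells (1.17, 0.770 to 1.79), while between the other cells it was at 8.41 against 18.3 CPM (0.460, 0.366 to 0.577). With 1 library per tissue none of these differences was tested.

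Promoters of the genes higher in interferon-high cells held the element's core more often than those of genes at large. Shares are of genes with a window, and a gene counted if any of its windows held a match. Genes with several annotated starts had more chances of one. The response element core shown above, searched on both strands, was in 3.99% of all 27025 genes of the RefSeq table. It was in 5 of the 6 score genes with a window (83.3%), Cmpk2 being the one without a match. Outside the score it was in 48 of 203 genes at least 2-fold higher in tumour (23.6%) and 39 of 117 in lymph node (33.3%). With cells thinned to equal depth these shares were 10.7% and 15.3%. It was in 3.32% and 4.20% of genes at least 2-fold lower, and in 3.99% and 4.11% of all genes with at least 100 UMIs. The gamma-activated core TTCNNNGAA was in 9.55% of all genes of the RefSeq table and in 12.3% and 14.5% of the higher genes. It was in 8.21% and 8.18% of all genes with at least 100 UMIs. Slfn5 and Oas3 each held 1 match to the response element core, 155 and 75 bases before the start. Irf7, Oasl1, Oasl2 and Ifit2 held none in these windows, which says only that these letters are absent there.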

How the data were processed

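The deposited matrices hold raw UMI counts per gene and droplet barcode for 27998 genes and 737280 barcodes in each of 2 libraries, 1 per tissue. Per the labels' protocols, sorted cells were run on the 10x Genomics 3' platform, and per the submitters' processing notes Cell Ranger and mm10 were used (no version or annotation is stated there). The matrices were unfiltered. Cells were barcodes with at least 3834 UMIs in tumour or 1811 in lymph node, at least 200 genes, at most 10% mitochondrial UMIs, and fewer than 20 melanoma (Pmel, Dct, Mlana), 3 macrophage (C1qa, C1qb, Lyz2) and 2 B cell (Cd79a, Ms4a1) UMIs. No doublet caller was run, and leaving out the 5% of cells with most UMIs was an alternative.

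From the deposited counts, UMIs were summed over cells, scaled to 1000000 UMIs (CPM) and compared as ratios with exact conditional binomial 95% intervals. Shares have exact Clopper-Pearson intervals. All cover counting error only. Cells are not replicates, so no p-value was computed. A gene was called at a 2-fold difference with at least 100 UMIs over the library's cells. List medians and counts within lists use genes with at least 20 UMIs, a floor of 3 UMIs stands for 0, and thinning drew 1811 UMIs per cell. The members and lists were chosen with earlier results of these data known. Named genes were the score genes, a fixed list, and 12 higher and 8 lower genes per library among those with 50 UMIs or more. These 12 and 8 were ranked by the interval bound nearest to 1. Also named were up to 4 per list, the 8 each way that differed most between tissues and 2 per marker list. Gene positions came from GENCODE on GRCm38 and promoter windows from RefSeq on GRCm38.p6. Python 3.11.15, numpy 2.4.6, scipy 1.17.1, pandas 2.3.3 and matplotlib 3.10.9 were used. The intervals were tested only on simulated Poisson counts, the model they assume, without spread between cells. Library totals were 23618037 UMIs in tumour and 14000036 in lymph node. A withheld item is not reported here.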

Additional observations from a re-analysis of the deposited data

Results flagged for a closer look

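Among the named genes with at least 20 UMIs in each library, 4 were at least 2-fold apart in opposite directions in the 2 tissues. Mapk7 had a ratio of interferon-high over other cells of 0.211 in tumour and 2.87 in lymph node, on 1 and 9 UMIs in interferon-high cells. Pitrm1 had ratios of 0.187 in tumour and 2.50 in lymph node, on 1 and 10 UMIs. Platr17 had ratios of 0.413 in tumour and 4.97 in lymph node, on 2 and 16 UMIs. Pdzk1ip1 had ratios of 16.3 in tumour and 0.451 in lymph node, on 20 and 2 UMIs, and 19 of the 20 were in 1 cell. None of these differences was tested.

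The score genes were also found in barcodes above the UMI threshold that the other cell filters removed. They were at 1517 CPM in 32 such tumour barcodes (2220 of 1462935 UMIs) and at 107 CPM in 24 such lymph node barcodes (9 of 83930 UMIs), where 3 UMIs correspond to 2.05 and 35.7 CPM.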

How the results depend on the processing

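No paired analysis was possible because each tissue has 1 library. Counts of genes at least 2-fold apart moved with the filter on UMIs, which by construction changes how many genes are compared, and for other settings the cause was not tested. In tumour, 277 genes were higher, against 1120 with no filter, 625 with cells thinned to equal depth and 501 with the top 2% of cells. There 799 were lower, against 456 with 200 UMIs, 4943 with no filter, 1751 thinned, 1202 with cells chosen on one part of the UMIs and measured on the other (split UMIs), 1728 with the top 2% and 430 with the top 10%. In lymph node, 158 were higher, against 281 with 50 UMIs, 93 with 200, 1040 with no filter, 332 thinned, 285 with split UMIs, 343 with the top 2%, 90 with the top 10% and 269 against cells of matched depth. There 483 were lower, against 922, 166 and 4670 with those filters, 881 thinned, 892 with split UMIs, 1016 with the top 2% and 194 with the top 10%.

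The share of higher genes with the response element core was 23.6% in tumour, against 17.1% with 50 UMIs, 9.33% with no filter, 10.7% thinned, 16.9% with split UMIs, 13.1% with the top 2% and 14.8% without mitotic cells. In lymph node it was 33.3%, against 21.9%, 9.21%, 15.3%, 18.5% and 16.6% in the first 5 of these settings, 47.5% with the top 10% and 20.4% at matched depth. The step to the next-ranked cells was 1.22 in tumour, against 1.26 with the top 2%, 1.31 without mitotic cells and 1.19 without the 3 interferon-high cells with most score UMIs. In lymph node it was 1.58, against 1.64 with per-cell CPM, 1.67 thinned, 1.48 with split UMIs, 1.41 with the top 2%, 1.5 with the top 10% and 1.52 without those 3 cells. The effectors' median log2 ratio in lymph node was 1.97, against 1.64 thinned, 2.41 with the top 2% and 1.6 with the top 10%, and that of tumour over lymph node interferon-high cells was 0.91, against 1.22 with the top 10%.

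Among named values at least 2-fold apart in the main setting, some changed sign (log2 ratios). Sign changes of smaller values, such as Il10 in tumour, are not listed here. Without mitotic cells, in tumour Birc5 was at 0.31, Ccna2 0.49, Hist1h2ap 0.24, Rrm2 0.91, Top2a 0.55, Tuba1b 0.23 and Tyms 0.12, and in lymph node Birc5 0.30 and Rrm2 0.22. With the top 2%, Tcf7 was at -0.84 in tumour, and Nr4a1 at -2.01 and Prdm1 at -0.34 in lymph node. Platr17 in tumour was at 1.01 with split UMIs and 0.89 with the top 10%. In lymph node Ifit2 was at -0.24 thinned, Ifng at 0.28 with split UMIs and Top2a at 0.58 at matched depth. Outside their intervals, beside the sign changes above, were 118 of 266 named values with the top 2%, 94 of 279 at matched depth, 83 of 270 thinned, 71 of 277 without mitotic cells, 50 of 284 with the top 10%, 49 of 284 with per-cell CPM, 30 of 273 with split UMIs, 30 of 282 without the deepest 5% of cells, 16 of 284 with ratios centred on all genes, 10 of 283 without those 3 cells and 0 of 283 with the 5-gene score. Matching on depth and leaving out 3 cells were chosen after seeing the data. With 1 library per tissue, the spread between mice is unknown.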
